A study of Mus musculus with 8 samples.

Results

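Oxidative phosphorylation is carried out by 5 large assemblies in the inner mitochondrial membrane. Complexes I and II take electrons from NADH and succinate, complex III passes them to cytochrome c, complex IV reduces oxygen, and the ATP synthase uses the resulting proton gradient to make ATP. A few core subunits are encoded by mitochondrial DNA, whereas most subunits, and all of complex II, are encoded in the nucleus and imported. Several subunits of complex IV and the membrane ring of the ATP synthase exist as isoforms from separate genes, some of them typical of heart, muscle, testis or hypoxic cells. The genes described here are the nuclear-encoded subunits, taken by gene symbol (Nduf, Sdh, Uqcr, Cox4 to Cox8 and Atp5 families, without symbols marked as pseudogenes by -ps). The rule found 89 of the 27179 rows of the count table.

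The study asked how loss of the transcriptional co-activator Yap1 changes gene expression in the epithelium of mouse gastric tumors. All 8 mice carried the homozygous Gp130FF knock-in, which drives excessive Stat3 signalling and antral tumors, and per the methods all carried the Tff1:CreERT2 transgene and Yap1 fl/fl alleles. In Yap1KO mice (n = 4) tamoxifen had induced Cre deletion of Yap1 exon 3, and Yap1WT mice (n = 4) were Yap1-proficient. The methods describe the Yap1WT mice as given vehicle, while the sample labels give 3 days after tamoxifen for all 8. Labels and methods give an age of 18 weeks for both groups, while the study's results text and figure legend give an older age. Cre was under Tff1 regulatory elements, which the study describes as active in surface (foveolar) cells of the gastric mucosa. EpCAM+ cells were sorted from antral tumors, 1 RNA-seq library was made per mouse, and both sexes were used.

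Libraries held between 18229945 and 77483047 counts. Yap1 itself stood at 21.3 to 29.7 CPM (read counts scaled to library size) in Yap1KO cells, against 64.2 to 78.0 CPM in Yap1WT cells (log2 fold change -1.51, standard error (SE) 0.13, adjusted p = 0.000208, edgeR quasi-likelihood test). Epcam was at 1524 to 1759 CPM in Yap1KO cells and at 938 to 1036 CPM in Yap1WT cells. Yap1KO replicate 4 lay at -66.8 on the first principal component, the other 7 libraries between -1.34 and 17.9. Endothelial markers summed to 562 to 1145 CPM in Yap1KO cells, against 178 to 643 CPM in Yap1WT cells. All 4 called foveolar markers, of 9 tested, were lower in Yap1KO cells, and all 5 called mucous neck and metaplastic markers, of 9 tested, were higher. Among all 13495 tested genes, 2.34% were called lower and 3.53% higher (adjusted p under 0.05, edgeR). Of 7 tested parietal cell markers, 1 was called lower (Ezr) and 1 higher (Slc26a9), with a median log2 fold change of -0.66 and 4 of 7 below 0. Atp4a and Atp4b, the subunits of the acid pump that defines these mitochondria-rich cells, averaged 17.2 and 4.64 CPM in Yap1KO cells, against 70.3 and 28.7 CPM in Yap1WT cells. Neither passed the test (log2 fold changes -2.02, SE 0.65, and -2.61, SE 0.78). The whole list summed to 727 to 950 CPM in Yap1KO cells and to 850 to 1482 CPM in Yap1WT cells. Atp4a and Atp4b were a small part of these sums. The part of these cell types in the levels of the respiratory genes was not tested. In sorted bulk cells, fewer cells of a type and less RNA per cell cannot be told apart.

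The promoters of the genes on which the account turns are shown first. Those of Sdhd, Sdhb and Sdha are shown because Sdhd alone passed the test while its partners in complex II did not. Those of Cox6b2 and Cox6b1 are shown because this isoform pair had the clearest separation between groups in its rare member, a choice made after its values were seen. Each run holds 280 bases, 250 before the annotated start and 30 after it, from RefSeq on GRCm38.p6, written 5′ to 3′ along the gene's strand. Capitals mark matches, on either strand, to the letters CCGGAAG (bound by GABP), GGGCGG (SP1) and CCAAT (NF-Y).
Sdhd, chr9:50603820-50604099, minus strand: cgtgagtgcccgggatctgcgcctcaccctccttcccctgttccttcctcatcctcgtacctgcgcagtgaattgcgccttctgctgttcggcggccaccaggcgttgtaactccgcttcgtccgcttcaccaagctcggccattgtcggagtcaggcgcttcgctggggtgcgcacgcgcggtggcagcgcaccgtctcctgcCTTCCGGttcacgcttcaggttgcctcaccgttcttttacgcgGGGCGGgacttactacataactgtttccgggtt
Sdhb, chr4:140961021-140961300, plus strand: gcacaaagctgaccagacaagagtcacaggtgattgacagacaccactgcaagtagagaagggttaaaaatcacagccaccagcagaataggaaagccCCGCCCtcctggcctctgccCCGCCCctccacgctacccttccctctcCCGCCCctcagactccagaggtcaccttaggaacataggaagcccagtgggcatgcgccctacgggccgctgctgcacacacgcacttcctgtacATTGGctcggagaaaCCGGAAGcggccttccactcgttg
Sdha, chr13:74350211-74350490, minus strand: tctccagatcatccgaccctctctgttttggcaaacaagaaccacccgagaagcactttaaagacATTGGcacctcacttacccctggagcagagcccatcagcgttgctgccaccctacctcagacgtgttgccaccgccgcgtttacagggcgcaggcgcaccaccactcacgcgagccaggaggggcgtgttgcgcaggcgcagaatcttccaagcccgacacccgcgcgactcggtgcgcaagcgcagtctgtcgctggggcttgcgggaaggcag
Cox6b2, chr7:4753065-4753344, minus strand: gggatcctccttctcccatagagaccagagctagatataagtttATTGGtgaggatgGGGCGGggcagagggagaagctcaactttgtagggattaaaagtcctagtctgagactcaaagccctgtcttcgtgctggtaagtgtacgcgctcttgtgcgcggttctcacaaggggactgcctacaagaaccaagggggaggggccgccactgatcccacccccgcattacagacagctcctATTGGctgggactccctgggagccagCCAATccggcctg
Cox6b1, chr7:30626085-30626364, minus strand: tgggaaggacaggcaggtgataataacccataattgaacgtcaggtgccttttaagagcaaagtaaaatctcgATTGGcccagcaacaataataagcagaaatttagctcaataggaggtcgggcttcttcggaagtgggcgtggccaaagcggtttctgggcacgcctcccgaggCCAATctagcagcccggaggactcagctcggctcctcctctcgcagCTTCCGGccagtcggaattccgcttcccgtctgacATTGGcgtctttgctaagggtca

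In these windows the CCGGAAG letters begin 46 bases before the start of Sdhd and 28 bases before that of Cox6b1. Both matches lie on the opposite strand. Sdhb holds the letters as written, beginning at position 7 from the start, and Sdha and Cox6b2 hold none. Over 75 windows of 300 bases (250 before the start, 50 after) that matched 70 of the 89 genes, 22.7% held CCGGAAG on either strand, against 8.86% of all 32851 promoter windows. AAGATGGCG, letters bound by YY1, stood in 9.33% of these windows and in 1.40% of all windows. The NRF1 motif, a palindrome, stood in 6.67% of these windows and in 0.971% of all windows. These 3 factors are known regulators of respiratory genes. TCAAGGTCA, bound by the estrogen-related receptors, was in the windows of Sdhd and Atp5g3 only, 2.67% against 0.423% of all windows. CCAAT (41.3% against 37.4%) was nearly as common in promoters at large, and GGGCGG stood in 30 of these 75 windows and in 35.7% of all windows. GGAATG, letters bound by TEAD, the DNA-binding partners of Yap1, stood in 10.7% of these windows and in 14.7% of all windows. No motif contains another, although CCGGAAG and AAGATGGCG can share the letters AAG, and a match describes the sequence only.

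Of the 89 genes, 80 were tested, and 8 failed the filter on low counts (over 0.5 CPM in at least 6 libraries). Ndufa11b, which passed it, was left out because RefSeq lists it as a pseudogene and it has no deposited log2 value. Only 1 was called at an adjusted p under 0.05, Sdhd, which was lower in Yap1KO cells, and 0 were called higher. Over all 13495 genes tested, 2.34% were called lower and 3.53% higher, so the share called among these 80 genes was near or under that of genes at large. With no adjustment, p was under 0.05 for 5 genes with lower and 1 gene with higher levels in Yap1KO cells, beside 8.97% and 11.5% of all tested genes. DESeq2 called 1 of the 80 lower and 0 higher (4.35% and 6.36% of all genes), and limma-voom called 1 lower and 0 higher (2.85% and 4.23%). A block for the replicate number called 4 lower and 0 higher (4.09% and 5.59% of all genes), and a term for sex called 2 lower and 0 higher (2.41% and 4.55%). Sex for that term was inferred from Ddx3y and Xist counts and was not read from the labels. Values in Yap1KO and Yap1WT cells did not overlap for 4 of the 80 genes (among them Sdhd, Ndufv1 and Uqcrc2), all lower in Yap1KO cells, beside 6.01% of all tested genes. None of the 80 was higher in all Yap1KO libraries, as 7.19% of all tested genes were.

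The log2 fold changes (Yap1KO over Yap1WT) leaned to the negative side without large steps. They were below 0 for 66 of the 80 genes, compared with 51.4% of all tested genes. Their median was -0.16, against -0.01 over all tested genes, and the middle of the distribution ran from -0.24 to -0.07 (quartiles). The median SE of a single gene was 0.15, about as large as the median shift itself. Genes of these complexes share libraries and tend to move together in a library, so the number below 0 is a count and not a number of independent findings. Without Yap1WT replicate 2 the median was -0.06 and 53 of 80 genes lay below 0, and without Yap1KO replicate 2 the median was -0.25.

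**Figure D1:**
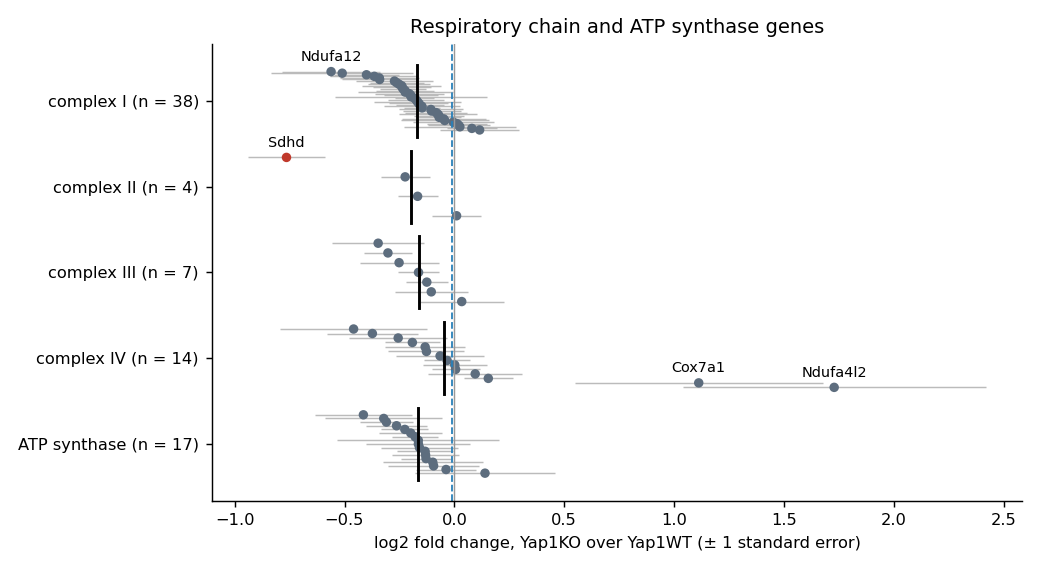
Log2 fold change (Yap1KO over Yap1WT, horizontal axis) of the 80 tested genes, grouped by complex. Points are genes, grey lines 1 SE on each side, black bars the median of a complex and the dashed line the median of all tested genes; the red point is Sdhd at -0.76, and Cox7a1 and Ndufa4l2 lie far to the right at 1.11 and 1.73 with wide errors.

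Complex II, succinate dehydrogenase, is the enzyme shared by the respiratory chain and the TCA cycle. Sdhd (gene ID 66925, chr9:50596340-50603849, GRCm38) encodes the small membrane anchor that, together with Sdhc, holds the heme and binds ubiquinone. Its level was 33.1, 33.9, 42.7 and 41.3 CPM in the Yap1KO libraries, against 44.8, 79.6, 71.2 and 60.9 CPM in the Yap1WT libraries. The highest Yap1KO library lay just under the lowest Yap1WT library, replicate 1, and well under the other 3. The means were 37.8 ± 4.96 CPM in Yap1KO cells and 64.1 ± 14.9 CPM in Yap1WT cells (SD, n = 4 each), a log2 fold change of -0.76 (SE 0.17; -1.11 to -0.42 at 2 SE either side) with an adjusted p = 0.0302 in edgeR.

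The lower Sdhd level was present among mice of both ranges of mouse numbers in the labels. The log2 difference (Yap1KO minus Yap1WT) was -0.83 among the lower-numbered mice (replicates 1 and 2) and -0.64 among the higher-numbered mice (replicates 3 and 4). The call was sensitive to single libraries: the adjusted p was above 0.05 without Yap1KO replicate 1 (0.0808), replicate 2 (0.0616) or replicate 4 (0.0593), and without Yap1WT replicate 2 (0.0707) or replicate 3 (0.0900), while the log2 fold change stayed between -0.90 and -0.64. Sdhd read counts were between 756 and 4916 per library, and none of its 80-base windows was found in another annotated gene.

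The other subunits of complex II did not pass the test. Sdhb, the iron-sulfur subunit, was at 129.8, 160.0, 147.0 and 126.4 CPM in Yap1KO cells, against 151.3, 185.6, 169.0 and 151.9 CPM in Yap1WT cells (log2 fold change -0.22, SE 0.11, adjusted p = 0.304). Sdhc, the other membrane anchor, was at 157.2 to 174.0 CPM in Yap1KO cells and at 172.6 to 203.3 CPM in Yap1WT cells (log2 fold change -0.17, SE 0.09, adjusted p = 0.348). Sdha, the flavoprotein that oxidizes succinate, averaged 331 ± 32.5 CPM in Yap1KO cells and 329 ± 33.2 CPM in Yap1WT cells (SD, n = 4 each), and its log2 fold change of 0.01 had bounds of -0.21 and 0.23 at 2 SE. The groups of Sdhb, Sdhc and Sdha all overlapped.

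**Figure D2:**
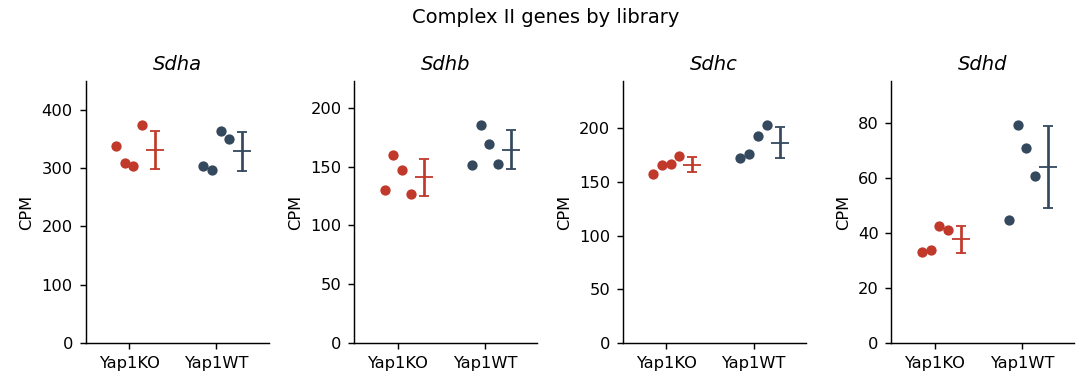
Level in CPM (vertical axis, from 0) of the 4 complex II genes in each library, Yap1KO left and Yap1WT right; points are mice, bars the mean and SD (n = 4). Only for Sdhd do all 4 Yap1KO points (33.1 to 42.7 CPM) lie below all Yap1WT points (44.8 to 79.6 CPM).

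Sdhd is transcribed away from its neighbour Timm8b, an import chaperone of the intermembrane space, whose annotated start lies across a gap of 51 bases on chromosome 9. Timm8b was at 30.5, 60.02, 40.04 and 48.2 CPM in Yap1KO cells, against 46.8, 66.1, 46.1 and 42.04 CPM in Yap1WT cells. Its groups overlapped and it did not pass the test (log2 fold change -0.17, SE 0.21, adjusted p = 0.708). The Sdhd promoter window printed above therefore covers the first bases of Timm8b on the other strand.

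Complex I, NADH:ubiquinone oxidoreductase, contributed 40 of the 89 genes, of which 38 were tested and 0 were called in either direction. Log2 fold changes ran from -0.56 to 0.11 with a median of -0.17, and 33 of 38 were below 0. These 38 are genes rather than separate subunits: they include Ndufb4b and Ndufb4c beside Ndufb4, and Ndufs6b beside Ndufs6. Ndufb4b and Ndufb4c averaged 20.6 and 30.6 CPM in Yap1KO cells and 26.1 and 39.4 CPM in Yap1WT cells. Ndufb4 itself averaged 4.06 CPM in Yap1KO cells and 5.80 CPM in Yap1WT cells. Ndufa5, an accessory subunit of the arm that takes up NADH electrons, was at 39.7, 41.8, 48.3 and 37.1 CPM in Yap1KO cells, against 42.8, 65.2, 62.4 and 49.9 CPM in Yap1WT cells. It had the smallest p of the complex (log2 fold change -0.40, SE 0.15, adjusted p = 0.157, edgeR quasi-likelihood test). Ndufa12, another accessory subunit, was at 14.9, 26.3, 26.5 and 25.2 CPM in Yap1KO cells, against 23.2, 42.7, 34.6 and 36.5 CPM in Yap1WT cells (log2 fold change -0.56, SE 0.22, adjusted p = 0.186, edgeR). In both genes the lowest Yap1WT library, replicate 1, lay within the range of the Yap1KO libraries.

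Ndufb9, an abundant accessory subunit of the membrane arm, spread widely, from 110 to 179 CPM in Yap1KO cells and from 131 to 202 CPM in Yap1WT cells (log2 fold change -0.15, SE 0.17, adjusted p = 0.692, edgeR). Ndufv1, the subunit that carries the NADH site, was named after its values were seen because its groups did not overlap: 117 to 127 CPM in Yap1KO cells and 129 to 151 CPM in Yap1WT cells (log2 fold change -0.18, SE 0.09, adjusted p = 0.292, edgeR).

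Complex III, the cytochrome bc1 complex, had 7 tested genes, 0 of them called, with a median log2 fold change of -0.16 and 6 of 7 below 0. Uqcrc2, a core subunit on the matrix side, was at 244.2, 293.9, 292.6 and 300.2 CPM in Yap1KO cells, against 325.8, 399.5, 347.0 and 322.1 CPM in Yap1WT cells. The groups did not overlap, and the log2 fold change of -0.30 (SE 0.11) had an adjusted p = 0.152 (edgeR). Its partner Uqcrc1 was at 309 to 342 CPM in Yap1KO cells and at 323 to 391.7 CPM in Yap1WT cells (log2 fold change -0.13, SE 0.10, adjusted p = 0.520, edgeR). Uqcrfs1, the Rieske iron-sulfur protein, was at 203 to 218 CPM in Yap1KO cells and at 206 to 250 CPM in Yap1WT cells (log2 fold change -0.16, SE 0.09, adjusted p = 0.375, edgeR). Cyc1, the cytochrome c1 subunit of the same complex, is not among the 89 genes by the naming rule, and was at 185 to 225 CPM in Yap1KO cells and at 207 to 248 CPM in Yap1WT cells (log2 fold change -0.16, SE 0.11).

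The ATP synthase had 17 genes, all tested and 0 called. Their median log2 fold change was -0.16, and 16 of 17 lay below 0. Atp5b, the catalytic beta subunit, was the most abundant of all 80 genes, at 1305, 1300, 1486 and 1390 CPM in Yap1KO cells, against 1472, 1513, 1703 and 1719 CPM in Yap1WT cells. The highest Yap1KO library exceeded the lowest Yap1WT library by a little, and the difference did not pass the test (log2 fold change -0.23, SE 0.11, adjusted p = 0.275, edgeR). Atp5a1, the alpha subunit, was at 1165 to 1362 CPM in Yap1KO cells and at 1242 to 1526 CPM in Yap1WT cells (log2 fold change -0.13, SE 0.12, adjusted p = 0.594, edgeR). Atp5pb, the b subunit of the peripheral stalk, had the smallest p of the complex, at 185.5, 228.0, 229.7 and 201.7 CPM in Yap1KO cells, against 222.7, 302.4, 265.7 and 256.3 CPM in Yap1WT cells (log2 fold change -0.31, SE 0.12, adjusted p = 0.172, edgeR).

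The c ring of the ATP synthase is encoded by 3 genes with the same mature protein. Levels between genes are compared on the deposited log2 scale per length (log2 RPKM, averaged over all 8 libraries). Atp5g3 stood at 9.30, Atp5g1 at 5.20 and Atp5g2 at 2.01 on that scale. In CPM, Atp5g3 averaged 384 ± 53.3 in Yap1KO cells and 461 ± 64.6 in Yap1WT cells (SD, n = 4 each), with a log2 fold change of -0.26 (SE 0.14, adjusted p = 0.335, edgeR). Atp5g1 and Atp5g2 had log2 fold changes of -0.13 (SE 0.15) and 0.14 (SE 0.32). For Atp5g2, 35.6% of the 80-base windows of its transcripts occurred in other annotated genes, compared with 6.97% for Atp5g1 and 0 for Atp5g3.

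Of the 20 genes of complex IV, cytochrome c oxidase, 14 were tested and 0 were called, with a median log2 fold change of -0.05 and 8 of 14 below 0. Log2 fold changes ran from -0.46 to 1.73, with the highest from the low-count genes Ndufa4l2 (1.73) and Cox7a1 (1.11). The next highest was 0.15, for Cox7a2l. The genes with the highest CPM were Cox4i1, the regulatory subunit IV, and Cox8a, the smallest subunit. Cox4i1 was at 338.5, 490.8, 371.8 and 376.9 CPM in Yap1KO cells, against 368.2, 480.3, 380.6 and 346.8 CPM in Yap1WT cells. Cox8a was at 284.4, 316.2, 341.2 and 371.8 CPM in Yap1KO cells, against 296.5, 324.0, 341.0 and 346.9 CPM in Yap1WT cells. The groups of both genes lay on top of each other, with log2 fold changes of 0.00 and 0.01 and bounds at 2 SE of -0.29 and 0.29 for Cox4i1 and of -0.21 and 0.22 for Cox8a.

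The isoforms of complex IV that are common in most tissues carried nearly all of the signal. On the log2 RPKM scale Cox4i1 stood at 9.20, Cox6a1 at 8.81, Cox6b1 at 8.68, Ndufa4 at 8.26, Cox7a2l at 7.56, Cox7b at 7.27 and Cox7a2 at 6.72, averaged over 8 libraries. None of them passed the test, and their log2 fold changes ran from -0.37 for Cox7a2 to 0.15 for Cox7a2l, which supports supercomplex assembly. Cox7a2l was at 217.6, 267.6, 211.8 and 213.5 CPM in Yap1KO cells, against 199.9, 231.4, 197.7 and 189.0 CPM in Yap1WT cells, so that most Yap1KO values lay above most Yap1WT values (SE 0.11, adjusted p = 0.493, edgeR). Cox6a1, Cox6b1, Cox7b and Ndufa4 had log2 fold changes of -0.03, -0.13, -0.26 and 0.09.

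The rare isoforms stood at or under a few CPM. Ndufa4l2, known as a hypoxia-induced relative of Ndufa4 and as a marker of pericytes, was at 0.91, 3.00, 3.31 and 3.77 CPM in Yap1KO cells, against 0.64, 0.86, 0.14 and 1.72 CPM in Yap1WT cells. Its log2 fold change of 1.73 (SE 0.69) had an adjusted p = 0.186 (edgeR), and the groups overlapped at Yap1KO replicate 1. Cox7a1, the heart and muscle isoform of subunit VIIa, was at 2.53, 1.45, 1.96 and 2.95 CPM in Yap1KO cells, against 0.97, 0.75, 2.07 and 0.25 CPM in Yap1WT cells (log2 fold change 1.11, SE 0.56, adjusted p = 0.311, edgeR). Both genes thus had wide errors in low counts, 10 to 256 reads a library for Ndufa4l2 and 7 to 152 for Cox7a1.

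Markers of stromal and vascular cells moved in part with Ndufa4l2 between libraries. The 11 fibroblast and smooth muscle markers were all tested and 0 were called. They summed to 347, 542, 1066 and 1089 CPM in Yap1KO cells, against 395, 175, 125 and 837 CPM in Yap1WT cells. Ndufa4l2 was likewise highest in Yap1KO replicates 3 and 4 and lowest in Yap1WT replicate 3. The order differed elsewhere: Yap1WT replicate 4 had a higher fibroblast sum than Yap1KO replicate 2 but less Ndufa4l2. Yap1WT replicate 1 likewise had a higher sum than Yap1KO replicate 1 and Yap1WT replicate 2 but less Ndufa4l2. The 10 endothelial markers had log2 fold changes above 0 in 10 of 10 cases, with a median of 1.32. Of these 10, 1 was called higher (Tie1, an endothelial receptor, 1.42), beside 3.53% of all tested genes. Col3a1, a fibroblast collagen, was at 132 to 460 CPM in Yap1KO cells and at 45.3 to 309 CPM in Yap1WT cells. Cox7a1 did not follow these markers in Yap1WT cells. It was highest in replicate 3 (2.07 CPM), where the fibroblast sum was lowest, and lowest in replicate 4 (0.25 CPM), where that sum was highest. In Yap1KO cells both were highest in replicate 4, but Cox7a1 was next highest in replicate 1 (2.53 CPM), where the fibroblast sum was lowest. The part of these cells in the values of Ndufa4l2 and Cox7a1 was not tested.

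Cox6b2, known as the testis isoform of subunit VIb (gene ID 333182, chr7:4751792-4753094, GRCm38), failed the filter but separated the groups. It was at 0.85, 1.10, 1.94 and 1.42 CPM in Yap1KO cells, against 0.22, 0.09, 0.28 and 0.25 CPM in Yap1WT cells, from 26 to 150 reads a library in Yap1KO cells and 4 to 19 in Yap1WT cells. Every Yap1KO library was above every Yap1WT library. Cox6b2 passed a looser filter (over 0.5 CPM in at least 4 libraries) only through its 4 Yap1KO libraries, so that a gene let in this way had to differ. In that fit its log2 fold change was 2.64 (SE 0.55, adjusted p = 0.0226, edgeR), beside 3.31% of all genes called higher and 2.24% called lower there. Its ubiquitous counterpart Cox6b1 was at 147.6, 259.1, 198.3 and 188.8 CPM in Yap1KO cells, against 182.1, 276.0, 222.4 and 189.9 CPM in Yap1WT cells. On the log2 RPKM scale Cox6b2 stood at 0.96 in Yap1KO cells and at -1.99 in Yap1WT cells, while Cox6b1 stood at 8.68 over all libraries.

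**Figure D3:**
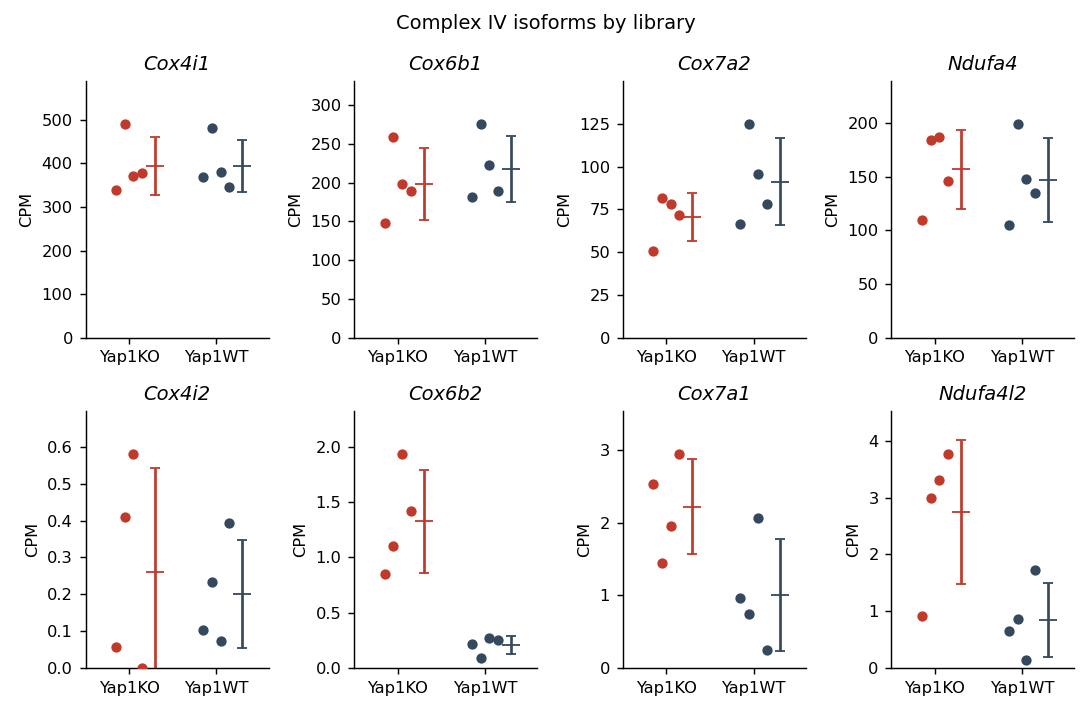
Level in CPM (vertical axes, each from 0 and on its own scale) of 4 common complex IV isoforms (top) and their rare counterparts (bottom) in each library, Yap1KO left and Yap1WT right; points are mice, bars the mean and SD (n = 4). Only Cox6b2 separates the groups, at 0.85 to 1.94 CPM in Yap1KO cells and 0.09 to 0.28 CPM in Yap1WT cells.

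The other genes that failed the filter had few or 0 reads. Cox4i2, the hypoxia-associated and lung isoform of subunit IV, had 3, 13, 45 and 0 reads in Yap1KO libraries and 8, 10, 5 and 11 reads in Yap1WT libraries. Cox6a2 (muscle), Cox7b2 and Cox8c (both testis isoforms) and Ndufb11b had 0 reads in all 8 libraries, which allows at most 3 counts a library, or 0.0387 to 0.164 CPM. Cox8b, the muscle isoform of subunit VIII, had 6 reads in Yap1KO replicate 3, 3 in Yap1WT replicate 2 and 0 elsewhere. Ndufa11b, left out as a pseudogene, was not among them, at 0.91 to 1.64 CPM in Yap1KO cells and 1.09 to 1.93 CPM in Yap1WT cells (29 to 103 reads in Yap1KO libraries and 54 to 115 reads in Yap1WT libraries).

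Uqcr11, a small subunit of complex III that is required in most tissues, also failed the filter. It had 8, 0, 3 and 0 reads in Yap1KO libraries and 0, 3, 0 and 0 reads in Yap1WT libraries, although its fellow small subunits Uqcr10, Uqcrh and Uqcrq were at 95.7 to 271 CPM in Yap1KO cells and at 109 to 282 CPM in Yap1WT cells. Only 1.91% of the 80-base windows of Uqcr11 occurred in another annotated gene, and no other RefSeq gene lay within 1000 bases of it on chromosome 10. The cause of the low count was not tested, so nothing is read from it about the level of the transcript.

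Several other subunits that every respiring cell needs were also far below their partners. Of the 81 genes with a deposited log2 value, 11 averaged under 5 on the log2 RPKM scale, where the median of the 81 was 6.87 and that of all 13819 genes was 2.96. Among those 11 were Atp5l (3.13), Ndufs5 (3.13), Ndufb4 (3.37), Cox7c (4.20) and Atp5h (4.94), as well as Atp5g2. Ndufa11 (4.24), a membrane arm subunit of complex I with 0 shared windows, and Ndufs6b (4.12), which had no window match, were also among the 11, as were the rare isoforms Cox7a1, Ndufa4l2 and Cox6b2. The share of their 80-base windows found in other annotated genes was 63.0% for Atp5l, 14.7% for Ndufs5, 34.9% for Ndufb4, 20.4% for Cox7c and 26.0% for Atp5h. Of the 12 genes with at least 10% of windows shared, 6 were under 5. Of the 66 genes with a smaller share, 4 were (Ndufa11, Cox7a1, Ndufa4l2 and Cox6b2). The medians were 5.29 and 7.12. The low value of Ndufa11 rests on a length of 2.66 kb implied by the deposited values, while its longest annotated coding transcript has 918 bases. In CPM it was at 40.8 to 71.9 in Yap1KO cells and at 44.7 to 60.2 in Yap1WT cells, so its level is not read as low. The levels of genes with shared windows are uncertain in both groups, and the part of the sharing in their levels was not tested.

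The median log2 RPKM over their genes was 6.58 for complex I, 7.01 for complex II, 7.69 for complex III, 7.56 for complex IV and 7.81 for the ATP synthase. Within complex II, Sdhd had the lowest level of its 4 genes, 4.89 in Yap1KO cells and 5.62 in Yap1WT cells, while Sdhc was at 7.17 in Yap1KO cells and 7.30 in Yap1WT cells.

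The largest differences among libraries cut across the groups. Relative to the mean of all 8 libraries, the median of the 80 genes was -0.33, 0.17, -0.02 and -0.09 (log2 CPM) in Yap1KO libraries, and -0.10, 0.35, 0.11 and -0.01 in Yap1WT libraries. Replicate 2 was the highest library of its group for 54 of 80 genes in Yap1KO cells and for 62 of 80 genes in Yap1WT cells. Replicate 1 was the lowest for 66 of 80 genes in Yap1KO cells and for 51 of 80 genes in Yap1WT cells. The labels use a replicate number only to name a mouse, and do not say whether same-numbered mice were paired or handled together. Deviations of same-numbered mice from their group means correlated at 0.04, 0.35, 0.05 and 0.15. The numbers were not taken to pair the mice across groups.

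**Figure D4:**
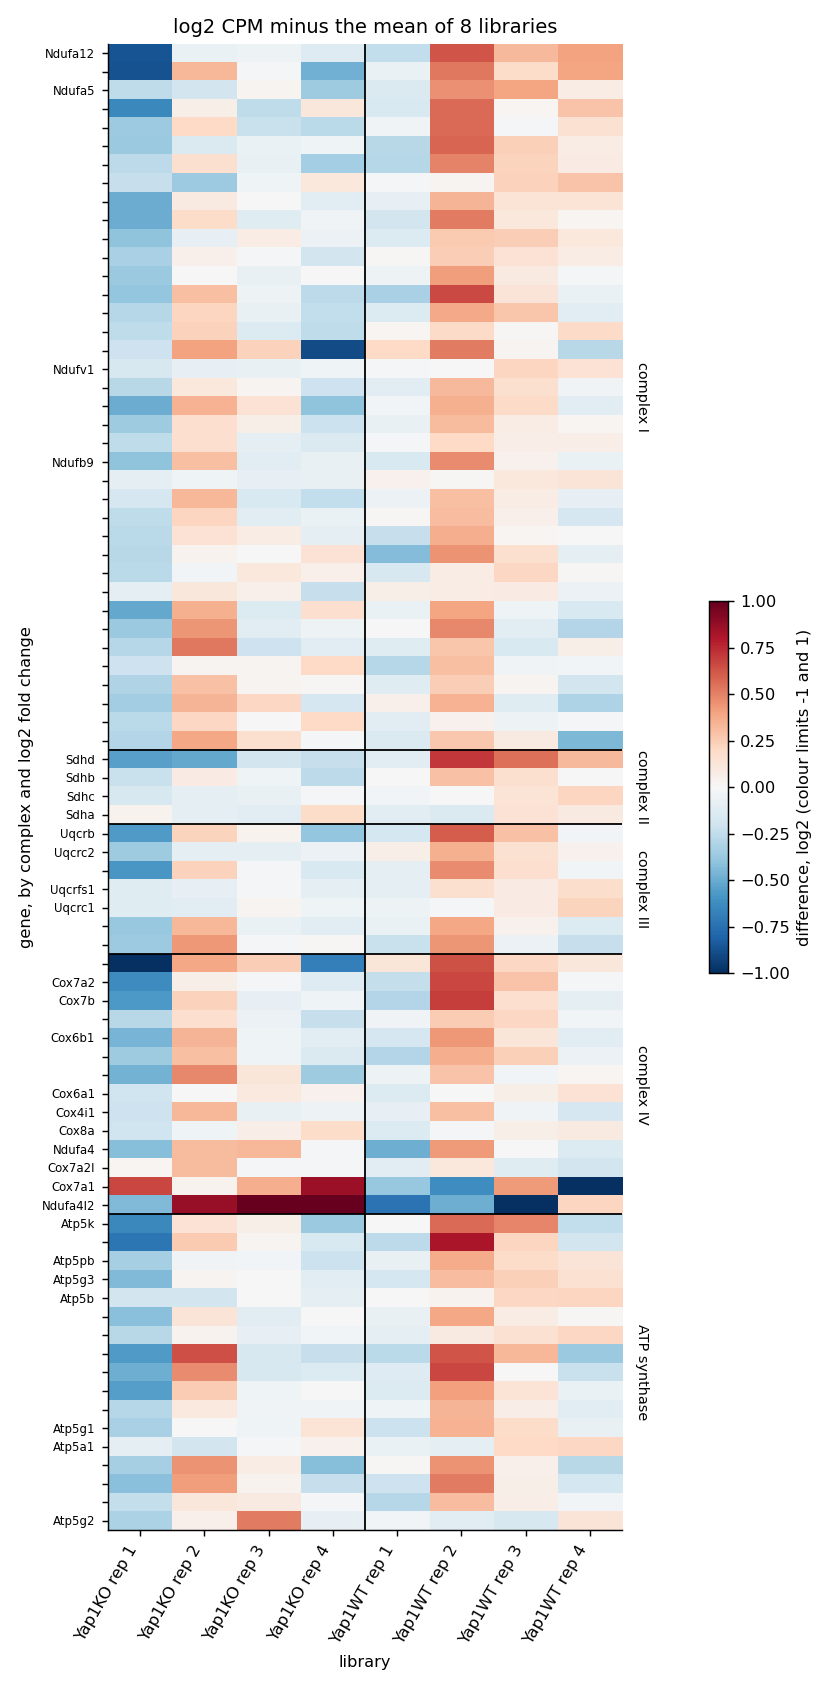
Log2 CPM of the 80 tested genes minus the gene's mean over 8 libraries (colour, limits -1 and 1), with genes down the page by complex and log2 fold change (some rows are labelled) and libraries across, Yap1KO left of the line and Yap1WT right of it. Single columns stand out more than the groups do: Yap1KO replicate 1 is mostly blue (median -0.33), Yap1WT replicate 2 mostly red (median 0.35).

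This spread was widest in short genes. The 57 tested genes with a length under 1 kb (as implied by the deposited values) had medians of -0.37, 0.22, -0.01 and -0.11 in Yap1KO libraries, and of -0.14, 0.39, 0.08 and -0.03 in Yap1WT libraries. The 23 genes of 1 kb and over had medians of -0.22, -0.04, -0.04 and -0.07 in Yap1KO libraries, and of -0.06, 0.16, 0.14 and 0.09 in Yap1WT libraries. All 1048 tested genes under 1 kb gave -0.21 in Yap1KO replicate 1, 0.23 in Yap1KO replicate 2 and 0.27 in Yap1WT replicate 2, so the short respiratory genes moved with short genes at large. All 4 genes whose groups did not overlap were of 1 kb and over. The length boundary was chosen after the values were seen, and its part in the spread was not tested.

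By mouse-number range the median log2 difference of the 80 genes (Yap1KO minus Yap1WT) was -0.19 among the lower-numbered mice, with 74 genes below 0, and -0.15 among the higher-numbered mice, with 63 below 0. An edgeR interaction of group and mouse-number range gave 0 of 80 genes at an adjusted p under 0.05, 0 at an unadjusted p under 0.05, and 0% of all tested genes.

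The 89 genes together took 1.004%, 1.22%, 1.26% and 1.18% of counts in Yap1KO libraries, against 1.149%, 1.34%, 1.35% and 1.29% in Yap1WT libraries. Yap1WT replicate 1 fell within the range of the Yap1KO libraries and the other 3 Yap1WT libraries lay above it. The 13 mitochondrially encoded subunits, which these genes assemble with, took 5.40%, 7.26%, 4.18% and 4.47% of counts in Yap1KO libraries, against 7.003%, 8.24%, 3.59% and 3.66% in Yap1WT libraries. These shares differed by mouse-number range rather than by group, with both groups higher in replicates 1 and 2. None of the 13 was called (0 lower and 0 higher, 0 in either direction at an unadjusted p under 0.05, edgeR), and the median log2 fold change was -0.11. COX1, the catalytic core of complex IV, was the most abundant, at 20708, 27654, 16082 and 16637 CPM in Yap1KO cells, against 25729, 32462, 12058 and 13200 CPM in Yap1WT cells.

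**Figure D5:**
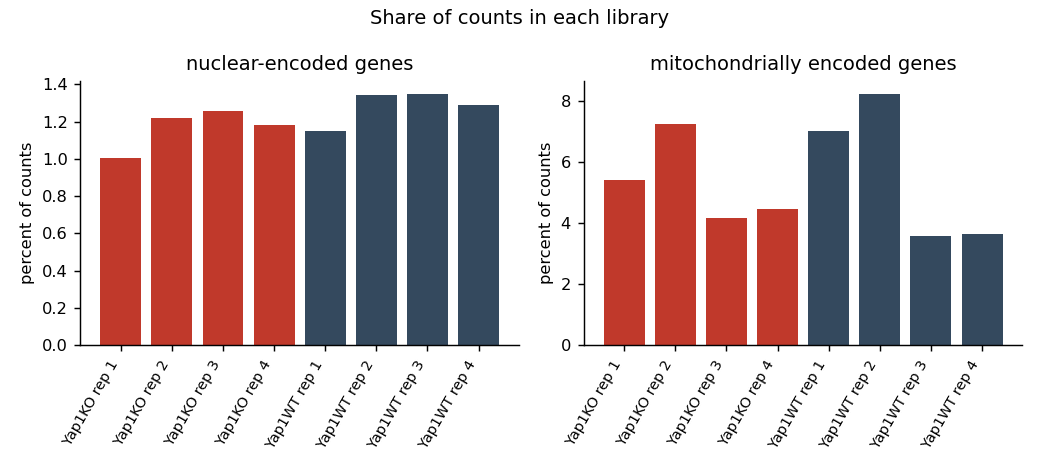
Percent of all counts (vertical axes, from 0) taken by the 89 nuclear-encoded genes (left) and by the 13 mitochondrially encoded genes (right) in each library, Yap1KO in red and left of Yap1WT. The nuclear share lies between 1.004 and 1.26 in Yap1KO libraries and between 1.149 and 1.35 in Yap1WT libraries; the mitochondrial share is highest in replicates 1 and 2 of both groups.

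The ratio of mitochondrially encoded to nuclear-encoded counts was 5.38, 5.97, 3.32 and 3.79 in Yap1KO libraries, against 6.10, 6.14, 2.66 and 2.84 in Yap1WT libraries. Among the lower-numbered mice the Yap1KO ratios were below the Yap1WT ratios, and among the higher-numbered mice they were above.

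Genes that build and feed the chain were taken from lists of the pathway. Of 51 tested assembly factors of complexes I to IV and the ATP synthase, 0 were called in either direction (before adjustment, 5 lower and 1 higher with p under 0.05, edgeR), with a median of -0.15. The most abundant were Coa5 and Coa3, both complex IV factors, with log2 fold changes of -0.10 (SE 0.11) and -0.32 (SE 0.17). Of 22 electron carriers and related genes, 2 were called lower and 0 higher (2.34% and 3.53% of all genes). Before adjustment, 8 of the 22 were lower and 0 higher with p under 0.05 (8.97% and 11.5% of all genes). Pdss2, which makes the side chain of coenzyme Q, was at 12.1, 13.9, 15.7 and 11.3 CPM in Yap1KO cells, against 17.3, 22.1, 23.2 and 26.5 CPM in Yap1WT cells (log2 fold change -0.75, SE 0.17). Sqor, which passes electrons from sulfide to coenzyme Q, was at 174.3, 184.3, 184.4 and 183.7 CPM in Yap1KO cells, against 225.7, 220.5, 261.8 and 250.6 CPM in Yap1WT cells (log2 fold change -0.40, SE 0.09). In neither gene did the groups overlap. Without Yap1KO replicate 1 or 4, or Yap1WT replicate 3 or 4, 0 genes of this list were called.

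The TCA cycle, in which complex II takes part, showed a similar pattern. Of 27 tested genes of the cycle and of pyruvate dehydrogenase, 2 were called lower and 0 higher, 24 lay below 0 and the median log2 fold change was -0.22. Before adjustment, 10 of the 27 were lower and 0 higher with p under 0.05, and in 7 of 27 the groups did not overlap, all lower in Yap1KO cells. Over all tested genes 2.34% were called lower, 8.97% were lower before adjustment and 6.01% did not overlap in that direction. Suclg2, a subunit of the GTP-forming succinyl-CoA ligase one step before complex II, was at 54.9, 50.1, 57.4 and 55.2 CPM in Yap1KO cells, against 62.5, 79.7, 88.5 and 78.3 CPM in Yap1WT cells (log2 fold change -0.51, SE 0.11, adjusted p = 0.030, edgeR). Idh2, the NADP-dependent mitochondrial isocitrate dehydrogenase, was at 64.2, 70.5, 76.1 and 64.1 CPM in Yap1KO cells, against 92.4, 80.3, 102.8 and 90.6 CPM in Yap1WT cells (log2 fold change -0.41, SE 0.10, adjusted p = 0.046, edgeR). The groups did not overlap for either gene. Without any 1 Yap1KO library, or without Yap1WT replicate 3 or replicate 4, 0 genes of this list were called.

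Among 17 tested carriers and porins of the mitochondrial membranes, 2 were called lower and 0 higher, and before adjustment 7 were lower and 0 higher with p under 0.05 (2.34% of all genes were called lower, and 8.97% were lower before adjustment). Mcu, the pore of the calcium uniporter, averaged 120 ± 19.6 CPM in Yap1KO cells and 179 ± 19.7 CPM in Yap1WT cells (SD, n = 4 each), a log2 fold change of -0.57 (SE 0.14). Without Yap1KO replicate 2 or 4, or Yap1WT replicate 1, 3 or 4, 0 of the 17 were called. Of 31 tested genes of protein import and cristae, 0 were called (before adjustment, 4 lower and 0 higher with p under 0.05, edgeR), with a median of -0.18. Hspa9, the import motor, had a log2 fold change of -0.19 (SE 0.13) and Hspd1, the matrix chaperonin, of -0.42 (SE 0.15). Of 27 tested regulators of mitochondrial biogenesis, 0 were called (before adjustment, 3 lower and 2 higher with p under 0.05, edgeR), among them the abundant Hif1a at 0.37 (SE 0.16) and Esrra at -0.01 (SE 0.09).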

How the data were processed

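RNA-seq libraries from EpCAM+ antral tumor cells of 8 mice (4 Yap1KO, 4 Yap1WT) were analysed from 2 kinds of deposited file. The gene-level read counts were made by the authors with Subread on GRCm38/mm10 and featureCounts with the inbuilt RefSeq annotation, whose handling of strand is not given in the sources used here. The deposited log2 values, made by the authors with limma voom and quantile normalization, equal log2 CPM minus the log2 of a fixed gene length, which gave the lengths used here. In that table of counts, 6 columns matched no sample and were not used. Rows without a symbol (0.552% to 0.789% of counts) stayed out of the tests, as did 762 pseudogene rows without a deposited log2 value. A further 73 pseudogenes with such a value were kept.

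Counts were tested with edgeR 4.0.16 (TMM, quasi-likelihood F test, Benjamini-Hochberg adjustment across the 13495 genes that exceeded 0.5 CPM in 6 or more libraries) in R 4.3.3. CPM use TMM-scaled totals; deviations between libraries are of log2(CPM + 0.5). The procedure was tested on simulated data. DESeq2 1.42.0, limma 3.58.1, other scalings and filters, blocks, a term for sex and the omission of each library were alternatives. Named genes were, per complex, those called, or else the 2 with the smallest p and the 2 with the highest CPM, with all untested genes and isoform sets; exceptions are stated, and some results are not reported here. Genes and lists were chosen with earlier results of these data known. Sharing of 80-base windows between genes was read from GENCODE M21 transcripts (GRCm38), where 86 of 89 genes matched.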

Additional observations from a re-analysis of the deposited data

Results flagged for a closer look

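Single libraries stood apart from their group in 3 of the 52 sets of 4 values examined, by Dixon's test at the 95% level, which flags about 1 set in 20 by chance. Ndufa12 in Yap1KO replicate 1 was at 14.9 CPM, below 25.2 to 26.5 CPM in the other Yap1KO libraries. Uqcrc2 in the same library was at 244 CPM, below 293 to 300 CPM in the others. Cox7a2l in Yap1KO replicate 2 was at 268 CPM, above 212 to 218 CPM in the others.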

How the results depend on the processing

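The count of 1 gene called lower and the sign of the median held under all changes of scaling (RLE, upper-quartile, total counts, library sizes without the 20 most abundant genes), under DESeq2, limma-voom, limma-trend, robust dispersion and the block for mouse-number range, with medians of -0.19 to -0.14 under these and the other settings that kept all 8 libraries. With a term for sex 2 genes were called lower (Sdhd, and Ndufa5 at an adjusted p = 0.0365 in edgeR). With the filter at 4 libraries, with no filter and with limma-trend 1 gene (Cox6b2) was called higher. Cox6b2 passed the filter at 4 libraries only through its Yap1KO libraries. Its groups therefore had to lie apart at 0.5 CPM in that fit, and its call there is no added support. Leaving out each library in turn gave 0 to 1 genes called lower and medians of -0.25 to -0.06, the last without Yap1WT replicate 2. The replicate block called 4 genes lower (Sdhd, Ndufa12, Uqcrb and Atp5k). Same-numbered mice correlated at 0.04, 0.35, 0.05 and 0.15 in their deviations. The numbers were not taken to pair the mice, although the labels do not say whether the mice were paired. Calls in the electron carrier, TCA cycle and membrane carrier lists were all lost without Yap1KO replicate 4, Yap1WT replicate 3 or Yap1WT replicate 4. Depth limits Ndufa4l2, Cox7a1, Cox4i2 and Cox6b2, and 4 mice a group limit all tests.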
